A study of Mus musculus with 6 samples.

Results

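Kinesins are motor proteins that burn ATP to walk along microtubules or to take their ends apart. The family was defined here by gene symbol, as every protein-coding row named Kif or Kifc followed by a number and at most one letter from a to c. The rule found 42 gene models of the 40303 in the table. Of these, 7 were set apart as mitotic motors (Kif11, Kif15, Kif18b, Kif20a, Kif23, Kif2c and Kif4), 7 others also serve cell division, 15 carry cargo, and 13 serve cilia or have other roles. The messenger RNA came from 6 tumours of CT26, a mouse colon carcinoma line, grown under the skin of wild-type BALB/c mice. 3 mice had been given PEGylated glutaminase into the peritoneum at 50 IU per kg, 2 injections with 3 days between doses, and 3 had been given vehicle, phosphate-buffered saline with 10% glycerol. Each tumour gave 1 library, and the tumours hold host cells beside the carcinoma cells.

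In a dividing cell, mitotic kinesins build the bipolar spindle, trim microtubule ends, and assemble the central spindle along which the daughter cells are cut apart. Their transcripts rise in the late part of the cell cycle and are low in resting cells, so bulk levels move with the share of dividing cells. Transport kinesins work in all phases, carrying mitochondria, vesicles and protein complexes, most of them towards the plus ends of microtubules, and several of them are known mainly from nerve cells.

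Promoter sequence was the 1 feature outside the expression table that could be read for the family. RefSeq promoters of GRCm38.p6, the C57BL/6J assembly, reach from 250 bases before to 50 after a transcript's start and were matched by symbol for 32 of the 42 members. The BALB/cJ sequence can differ from them. The 10 members without a match include Kif20a, Kif5b and Kifc3. The letters TTTGAA, the core of the cell cycle genes homology region through which the DREAM and MuvB-FoxM1 complexes are known to time late cell cycle genes, were searched on both strands, the other strand reading TTCAAA. They occurred in 6 of the 6 mitotic motors with a promoter, 4 of 7 other division motors, 1 of 10 transport motors and 2 of 9 motors of the remaining group. Of all 27025 genes with a promoter 20.2% held them, and of all 32851 promoters 17.9%. Within 50 bases of the start they occurred in 5 of the 6 mitotic motors and in 5.72% of all genes with a promoter. A match is a description of letters and not a binding site.

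The stretches below run from 150 bases before to 50 after the start and are shown because the motors of the mitotic group share this feature. Capitals mark TTTGAA or its other strand. They lie at chr19:37376232-37376431 (plus strand), chr9:122950931-122951130 (plus), chr9:61946750-61946949 (minus), chrX:100625915-100626114 (plus), chr11:102925075-102925274 (minus) and chr4:117178723-117178922 (minus), each read in the direction of the gene. Kif1c, at chr11:70700398-70700597 (plus), is the transport motor with the highest level per length and holds no match.
Kif11: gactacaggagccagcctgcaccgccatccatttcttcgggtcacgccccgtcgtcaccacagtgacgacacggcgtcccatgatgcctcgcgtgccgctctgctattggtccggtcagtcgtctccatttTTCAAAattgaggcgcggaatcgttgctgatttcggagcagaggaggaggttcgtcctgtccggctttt
Kif15: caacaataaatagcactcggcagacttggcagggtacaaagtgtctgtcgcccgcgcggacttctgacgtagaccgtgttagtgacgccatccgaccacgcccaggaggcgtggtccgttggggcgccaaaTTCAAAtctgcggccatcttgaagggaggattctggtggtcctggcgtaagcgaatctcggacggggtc
Kif23: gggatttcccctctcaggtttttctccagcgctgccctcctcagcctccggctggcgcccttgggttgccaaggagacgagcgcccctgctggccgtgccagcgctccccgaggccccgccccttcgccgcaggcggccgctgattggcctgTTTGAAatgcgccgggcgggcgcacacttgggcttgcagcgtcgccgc
Kif4: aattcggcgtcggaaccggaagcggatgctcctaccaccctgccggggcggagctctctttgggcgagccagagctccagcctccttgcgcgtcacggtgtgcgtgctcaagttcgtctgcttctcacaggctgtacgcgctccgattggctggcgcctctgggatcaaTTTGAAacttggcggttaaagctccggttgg
Kif18b: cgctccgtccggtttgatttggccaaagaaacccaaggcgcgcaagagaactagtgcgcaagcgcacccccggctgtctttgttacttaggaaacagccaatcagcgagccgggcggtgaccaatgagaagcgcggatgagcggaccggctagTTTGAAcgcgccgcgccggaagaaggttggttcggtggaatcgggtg
Kif2c: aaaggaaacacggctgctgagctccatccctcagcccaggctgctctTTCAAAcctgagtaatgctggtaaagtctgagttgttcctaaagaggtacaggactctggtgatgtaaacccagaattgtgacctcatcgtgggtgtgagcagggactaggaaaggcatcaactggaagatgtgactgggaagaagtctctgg
Kif1c: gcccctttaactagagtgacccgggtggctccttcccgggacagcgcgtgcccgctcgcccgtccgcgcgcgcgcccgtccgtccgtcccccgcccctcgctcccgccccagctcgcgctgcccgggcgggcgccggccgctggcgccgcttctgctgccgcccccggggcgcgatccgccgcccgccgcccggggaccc

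Counting the start base as 1 and bases before it as negative, the match began at position -19 in both Kif11 and Kif15, at 3 in Kif23, at 4 in Kif18b and at 20 in Kif4. In Kif2c it lay farther out, at -103, and Kif15 held another at -234, outside the stretch printed. The CCAAT box, which the factor NF-Y is known to bind and which was searched as CCAAT and as ATTGG, occurred in 4 of the 6 mitotic motors, Kif11, Kif18b, Kif23 and Kif4, and in 3 of 10 transport motors. Of all genes with a promoter 41.1% held it, and no match of the 2 motifs overlapped in a member. Among the fixed list of proteins that work with the mitotic motors, TTTGAA occurred in 8 of 13 genes with a promoter, and among partners of the transport motors in 0 of 13.

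**Figure D1:**
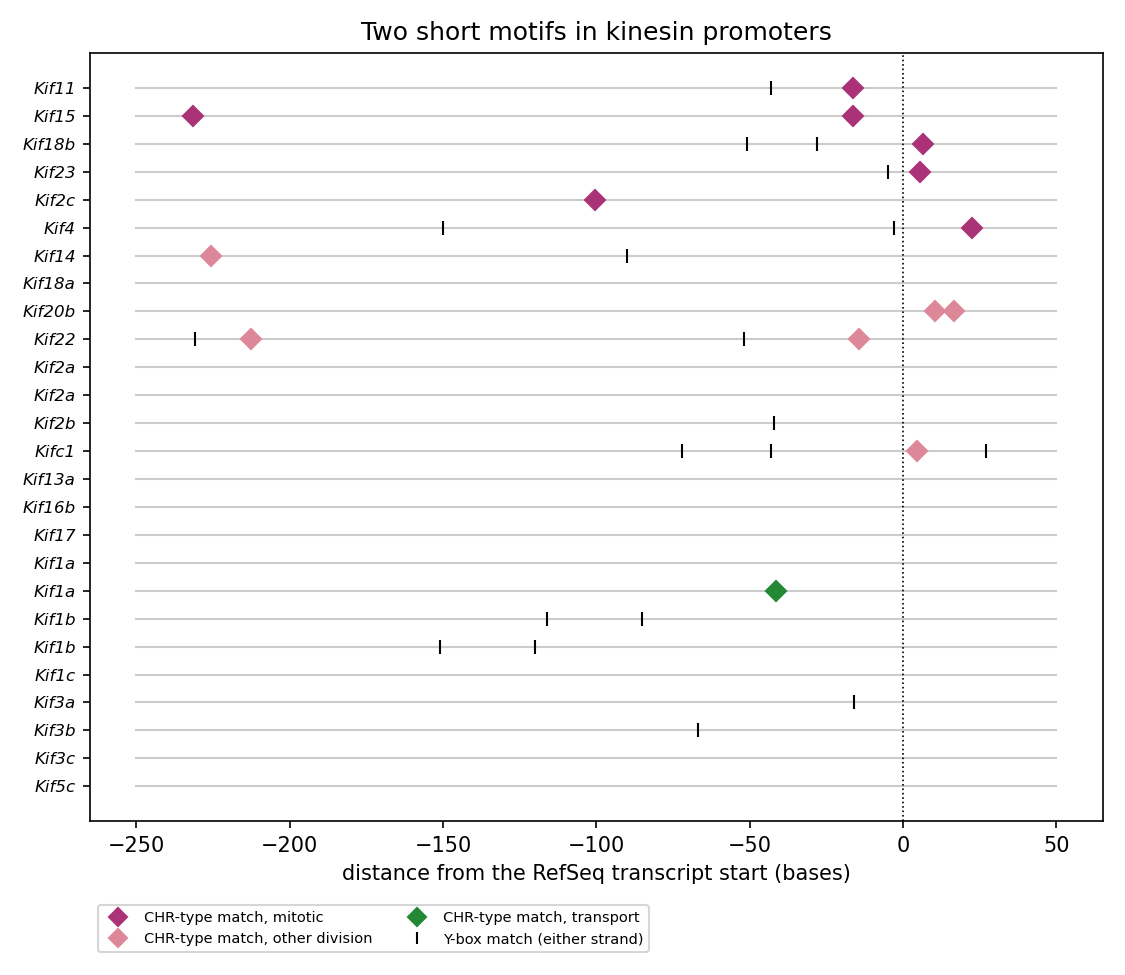
Matches of TTTGAA on either strand (diamonds) and of the CCAAT box (black ticks) along the promoters of division and transport motors, by distance in bases from the RefSeq transcript start; a gene with several starts has several lines. Diamonds occur in 6 of 6 mitotic motors and 1 of 10 transport motors.

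The libraries held 16455052 to 18051480 recovered reads. Levels are given in normalized counts, that is, reads after scaling each library by its size factor. Members with a mean of at least 10 were tested with limma on log2(value + 1), which understates the change of low genes, and p-values were adjusted over all 13557 genes tested. Of the 42 members 35 were tested. Kif12 and Kif2b had 0 reads in all libraries, Kif6 had 1 read over the 6, Kif27 2, Kif19b 3, Kif28 4 and Kif17 19. The family took 0.17% to 0.195% of reads in vehicle tumours and 0.19% to 0.227% in PEG-glutaminase tumours, where the highest value was that of PEG-glutaminase 2 and the lowest, in PEG-glutaminase 1, lay under that of vehicle 1.

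Per transcript length the most abundant motor was Kif1c, a carrier of vesicles and messenger RNA, at an RPKM (reads per kilobase of transcript, scaled to the size of the library) of 46.1 ± 1.46 in vehicle tumours (SD, n = 3). Kif20a, which brings Aurora B to the central spindle, followed at 38.0 ± 2.72, and Kif5b, the heavy chain of conventional kinesin found in most cells, at 30.1 ± 2.35. Kif23, Kif2c and Kif22 came next at 25.0 ± 2.13, 24.1 ± 1.26 and 22.3 ± 1.18, and neighbours among these 3 did not differ beyond their spread. Kif11 stood at 20.2 ± 2.0. The motors best known from nerve cells were near the other end, Kif5c at 0.201 ± 0.067, Kif5a at 0.18 ± 0.00873 and Kif1a at 0.0921 ± 0.0158. These levels use the longest annotated transcript, which need not be the one in use.

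**Figure D2:**
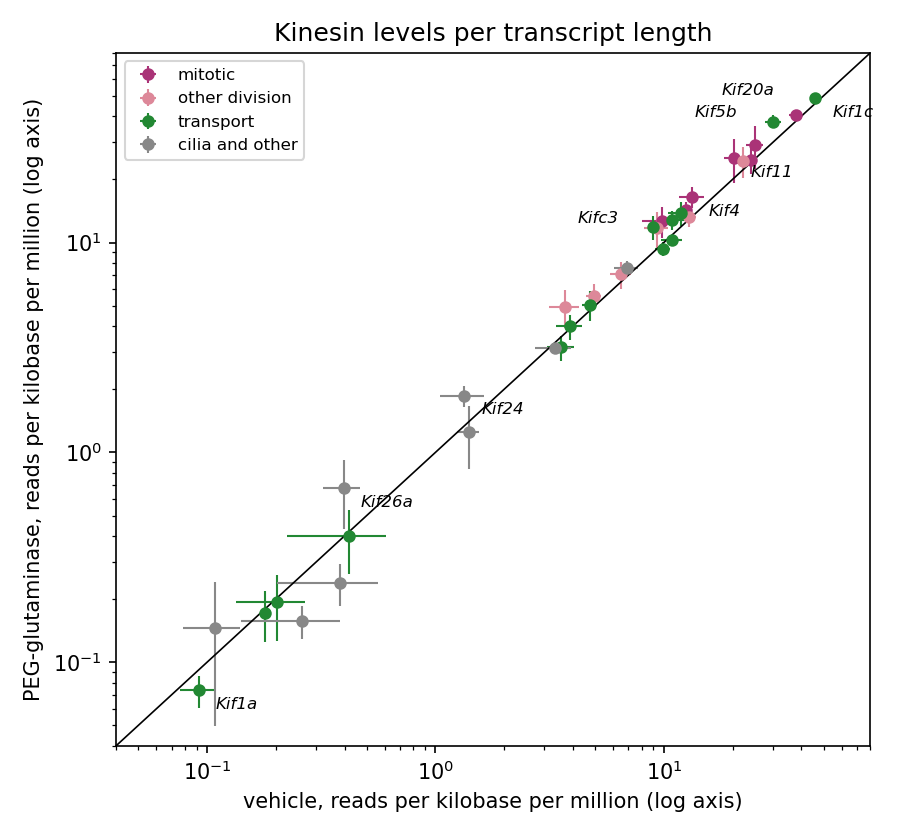
Level of each tested member in RPKM over the longest annotated transcript, vehicle on the horizontal and PEG-glutaminase on the vertical log axis (points are means, bars SD, n = 3 tumours per group; the line marks equal levels). Kif1c stands highest at 46.1 and Kif1a lowest at 0.0921 in vehicle tumours.

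The question was which kinesin transcripts differ after PEG-glutaminase. In the limma test 0 of 35 members passed an adjusted p of 0.05, while 8 had an unadjusted p under 0.05, all of them higher; edgeR also called 0, as did DESeq2, which called 1.73% of all genes higher and 2.17% lower. Over all genes tested, 0.00738% were called higher and 0.0295% lower, and 8.92% had an unadjusted p under 0.05 and were higher, against 9.51% lower. Leaving out vehicle 1, 2 or 3 turned this count of 8 into 10, 2 and 5, and leaving out PEG-glutaminase 1, 2 or 3 gave 9, 2 and 8. With a correction for transcript length, described below, the count was 5. All 7 mitotic motors and all 6 tested motors of the other division group had a log2 difference above 0, as did 7 of 14 transport motors and 4 of 8 in the remaining group. Over all genes tested 50.0% were higher. The median log2 difference was 0.17 for the mitotic motors, 0.12 for the other division motors, -0.02 for the transport motors and 0.01 for the rest, and about 0 (-4.97e-05) over all genes tested.

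The higher mitotic values were largest in 1 tumour. PEG-glutaminase 2 was the highest of the 6 libraries in all 13 tested division motors, where over all genes it was highest in 23.9%. On average over the 7 mitotic motors this tumour lay 0.30 above the mean of the 6 tumours on the log2 scale. PEG-glutaminase 1 and 3 lay at -0.04 and 0.01, vehicle 1 at 0.02, and vehicle 2 and 3 at -0.17 and -0.13, so the groups overlapped. Vehicle 2 was the lowest library in 4 of the 7, against 21.7% of all genes. Without PEG-glutaminase 2 the median of the mitotic motors was 0.0941, with 6 of 7 higher, and that of the other division motors 0.03, with 3 of 6 higher. The p-values measure the spread between mice, 1 tumour each.

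**Figure D3:**
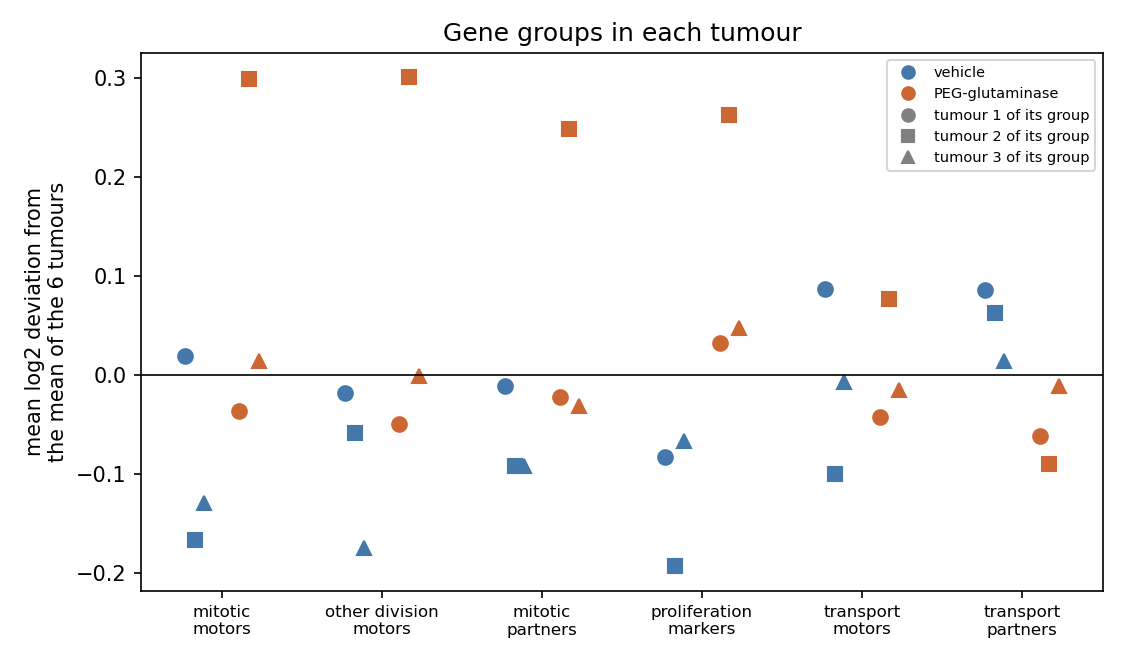
Mean log2 deviation of each gene group from the mean of the 6 tumours, 1 symbol per tumour, for motors, their partners and proliferation markers. PEG-glutaminase 2 (orange square) stands highest in the 4 division groups, at 0.30 for the mitotic motors, and PEG-glutaminase 1 and 3 lie among the vehicle tumours for the mitotic motors.

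Kif4, a chromosome-bound motor that shortens the central spindle with Prc1 (ENSMUSG00000034311), had 1289, 1060 and 1081 normalized counts in vehicle 1 to 3 and 1313, 1542 and 1311 in PEG-glutaminase 1 to 3. The groups did not overlap, though vehicle 1 lay close under the treated tumours. The log2 difference was 0.28 ± 0.10 (SE; limma adjusted p = 0.206). Kif15, which helps to hold spindle poles apart (ENSMUSG00000036768), had 922, 675 and 851 in vehicle tumours and 886, 1201 and 1025 in treated ones. Vehicle 1 lay above PEG-glutaminase 1. Its difference was 0.35 ± 0.14 (limma adjusted p = 0.242), and 0.216 without vehicle 2.

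Kif11, the Eg5 motor that drives the spindle poles apart and is the target of monastrol (ENSMUSG00000012443), had 1838, 1588 and 1614 in vehicle tumours and 1738, 2566 and 1842 in treated ones. PEG-glutaminase 2 stood far above the other 5 tumours, which lay close together. The difference was 0.27 ± 0.14 (limma adjusted p = 0.348) and 0.0941 without PEG-glutaminase 2. Kif23, the motor of the centralspindlin complex (ENSMUSG00000032254), had 1581, 1440 and 1365 against 1424, 2075 and 1496. For Kif23 only PEG-glutaminase 2 lay above the range of the vehicle tumours. The difference was 0.17 ± 0.14 (limma adjusted p = 0.531) and 0.000312 without that tumour.

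Kif18b, which shortens astral microtubules (ENSMUSG00000051378), had 731, 733 and 676 in vehicle tumours and 743, 868 and 790 in treated ones, groups that did not overlap. Its difference was 0.16 ± 0.09 (limma adjusted p = 0.352), and 0.104 without PEG-glutaminase 2. Kif20a (ENSMUSG00000003779), at 2526, 2284 and 2408 against 2447, 2612 and 2460, differed little, by 0.06 ± 0.08 with a 95% interval of -0.11 to 0.23 (limma adjusted p = 0.699), or 0.0225 without vehicle 2. Kif2c, a depolymerase that corrects wrong attachments at centromeres (ENSMUSG00000028678), had 1231, 1159 and 1157 against 1146, 1365 and 1064, with the vehicle tumours lying inside the range of the treated ones. Its difference of 0.00 ± 0.10 had a 95% interval of -0.22 to 0.23. Without PEG-glutaminase 2 it was -0.0982.

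**Figure D4:**
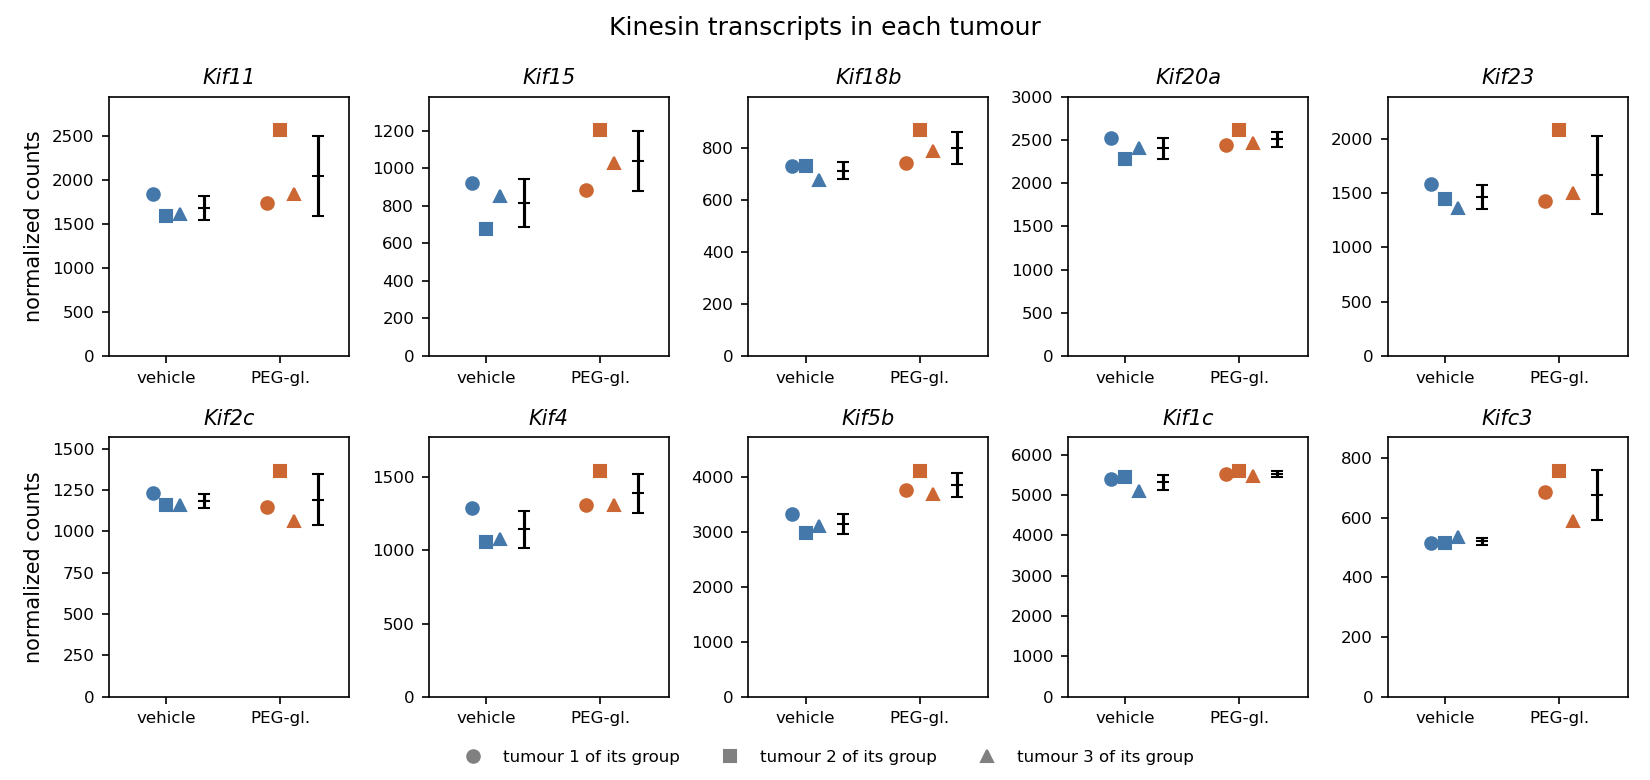
Normalized counts (linear axis from 0) of the 7 mitotic motors and of the transport motors Kif5b, Kif1c and Kifc3 in each tumour; symbols give the tumour within its group, and the black bar the mean ± SD of 3 tumours. The square of PEG-glutaminase 2 is the highest point in all 10 panels.

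Among the other division motors, Kif14, which acts with citron kinase in cytokinesis, had 641, 497 and 564 in vehicle tumours and 648, 908 and 675 in treated ones. The groups did not overlap, but PEG-glutaminase 1 exceeded vehicle 1 by little. The difference was 0.38 ± 0.14 (limma adjusted p = 0.219), and 0.228 without PEG-glutaminase 2. Kif20b, a motor of late cytokinesis, had 996, 847 and 829 against 950, 1313 and 1025, and differed by 0.29 ± 0.13 (limma adjusted p = 0.263), or 0.153 without PEG-glutaminase 2. The remaining 4 stood from 0.01 for Kif2a, a depolymerase of spindle poles and nerve cells, to 0.13 for Kif18a, which damps chromosome movements, with Kif22, a chromosome arm motor, at 0.10 and the minus-end motor Kifc1 at 0.09.

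The transport motors held the member of smallest p in the family, Kif5b (ENSMUSG00000006740). It had 3329, 2970 and 3097 normalized counts in vehicle tumours and 3756, 4103 and 3683 in treated ones. Every treated tumour lay above every vehicle tumour, with a gap about as wide as the range of the vehicle values. The difference was 0.30 ± 0.08 with a 95% interval of 0.11 to 0.48, or 1.23-fold, which did not pass (limma adjusted p = 0.136; DESeq2 adjusted p = 0.0502). It kept 0.249 without PEG-glutaminase 2.

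In the authors' deposited table Kif5b was the 1 kinesin of 28 with an adjusted p that passed 0.05, at a log2 fold change of 0.24 and an adjusted p of 0.0479; of all genes with an adjusted p there, 1.98% passed as higher. The mean signal in the authors' deposited table differed by over 1% from the mean of the 6 library columns in 65.6% of genes tested. For 6 of the 35 tested kinesins (Kif21b, Kif2c, Kif2a, Kif5c, Kifc2 and Kif5a) the log2 fold change of the authors' deposited table had the opposite sign to the one computed here. The sources used here do not say which libraries or scaling their comparison rests on.

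Kifc3, a minus-end motor of cell junctions (ENSMUSG00000031788), had 516, 514 and 535 in vehicle tumours and 686, 756 and 587 in treated ones. The vehicle values were nearly equal and all lay under the treated ones, which spread more widely. The difference was 0.37 ± 0.11 with a 95% interval of 0.13 to 0.60 (limma adjusted p = 0.149). The authors' deposited table gives it a smaller log2 fold change of 0.18, with an adjusted p of 0.522. Kif1c, the most abundant member, had 5399, 5455 and 5091 against 5519, 5599 and 5465. Its groups did not overlap, yet the difference was only 0.06 ± 0.07 (limma adjusted p = 0.706), or 0.0264 without vehicle 3. Kif1b, a carrier of mitochondria and synaptic vesicle precursors, had 2106, 1682 and 1954 against 2148, 2432 and 2049, and differed by 0.21 ± 0.10 (limma adjusted p = 0.302), or 0.12 without vehicle 2 and 0.139 without PEG-glutaminase 2. Kif13a, an endosome motor, had 1548, 1264 and 1396 against 1490, 1814 and 1488, and differed by 0.19 ± 0.11 (limma adjusted p = 0.361), or 0.0908 without PEG-glutaminase 2 and 0.113 without vehicle 2.

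Of all genes tested the groups did not overlap in 13.1% as higher and 12.7% as lower. Among the members this was so in 8 of 35 as higher, namely Kif4, Kif18b, Kif14, Kif5b, Kifc3, Kif1c, Kif24 and Kif26a, and in 0 as lower. The subunits of kinesin-2, the motor that supplies cilia and moves endosomes, stood on the other side of 0. Kif3a was at -0.11 ± 0.11, Kif3b at -0.10 ± 0.09 and Kif3c at -0.20 ± 0.14. Kifap3, the subunit that joins them to cargo, was at -0.30 ± 0.10 (limma adjusted p = 0.184). None of these 4 passed. The remaining transport motors lay between -0.33 for Kif1a and 0.06 for Kif16b.

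In the group of cilia and other motors, Kif24, which is known to restrain cilium formation, had 135, 100 and 151 in vehicle tumours and 165, 196 and 168 in treated ones. The difference was 0.47 ± 0.18 (limma adjusted p = 0.222), in groups that did not overlap, and 0.295 without vehicle 2. Kif26a, a kinesin that lacks motor activity, had 52.2, 38.3 and 51.0 against 69.4, 109 and 57.6, and the difference of 0.69 ± 0.27 was the largest above 0 in the family (limma adjusted p = 0.224). It was 0.429 without PEG-glutaminase 2. Kif9 and Kif19a, both of motile cilia, stood at -0.62 ± 0.44 and -0.59 ± 0.39 on few reads, 69 and 110 over the 6 libraries. The others were Kif26b at 0.24, Kif21a at 0.12, Kif7, a regulator of Hedgehog signalling, at -0.10 and Kif21b at -0.23.

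**Figure D5:**
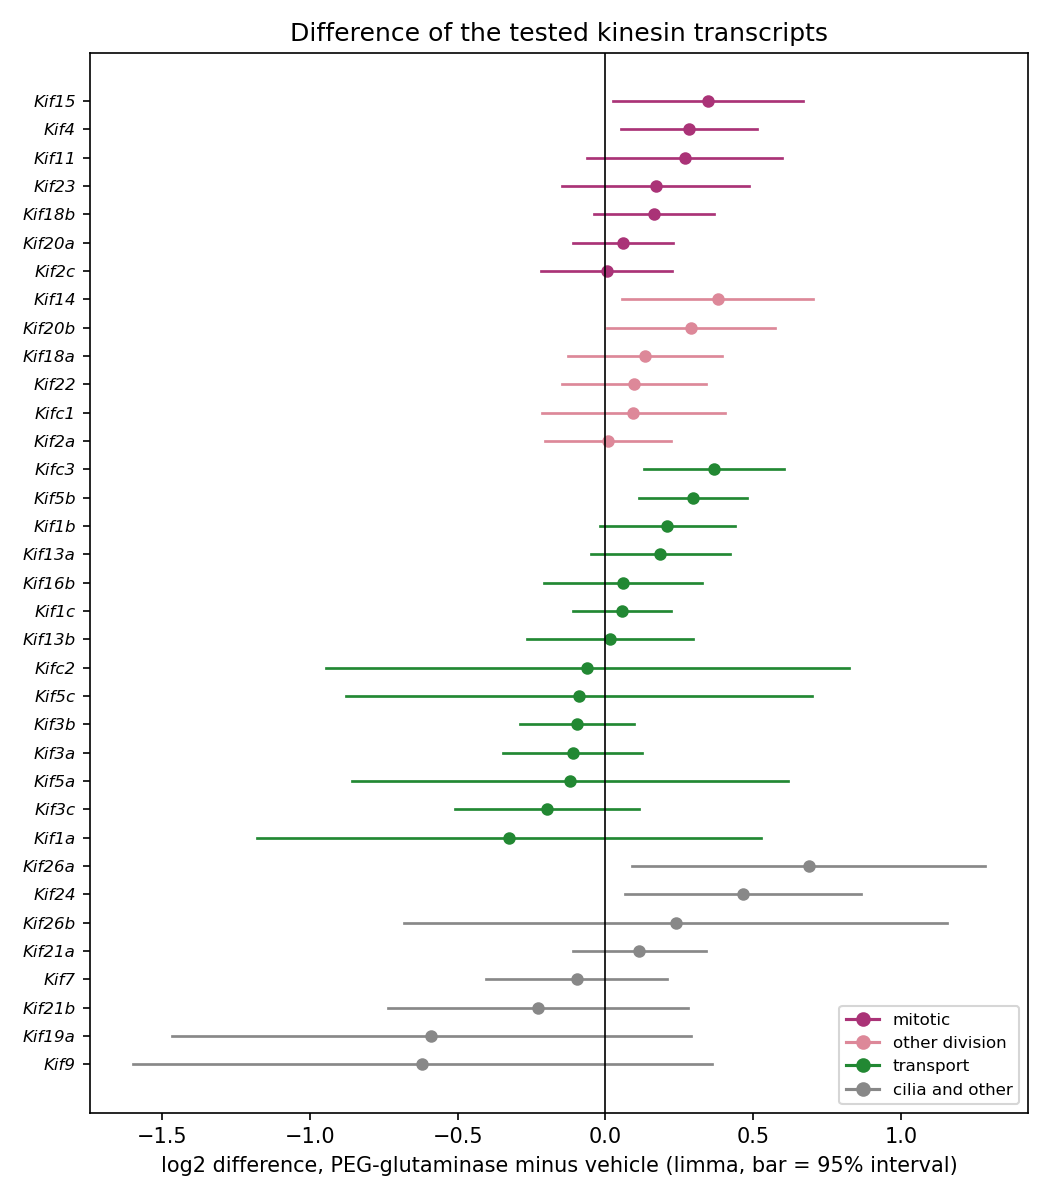
Log2 difference of each of the 35 tested members, PEG-glutaminase minus vehicle, by limma (points, with 95% intervals as bars), grouped by role. All 13 division motors lie at or above 0, and 8 intervals in the family exclude 0, none of which passed after adjustment over all genes.

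Set against each other within a tumour, the mean deviation of the mitotic motors minus that of the 14 tested transport motors was -0.07, -0.07 and -0.12 in vehicle 1 to 3 and 0.01, 0.22 and 0.03 in PEG-glutaminase 1 to 3. All treated tumours lay above all vehicle tumours in this score, which has no p because it is made over chosen members. Restricted to transport motors with a mean of at least 50, the score was -0.02, -0.07 and -0.06 in vehicle tumours and -0.03, 0.22 and -0.04 in treated ones, and the groups then overlapped. The separation was seen only with the transport motors of lower mean included.

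Transcript length moved with the comparison. With all genes tested split by length into 5 groups of nearly equal size, the median log2 difference was -0.12 in the shortest, -0.00301 in the middle one and 0.10 in the longest, from 5156 bases up. The mitotic motors, of 2842 to 4983 bases, were all in the third and the fourth group, where the median of all genes was -0.00301 and 0.02. The transport motors had a median length of 6544 bases. The longest group held 20 of the 35 tested kinesins, among them Kif14, Kif18a, Kif20b and Kif2a of the other division motors. Of all genes in that group 70.5% were higher. After a correction for length, chosen after seeing the data, the medians were 0.16 for the mitotic and -0.08 for the transport motors, and Kif5b stood at 0.22, Kif13a at 0.0866, Kif1b at 0.0393 and Kif1c at -0.0371. With this correction 7 of 7 mitotic motors, 5 of 6 other division motors and 4 of 14 transport motors were higher.

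The partners of the mitotic motors also had mostly positive differences. Of 16 genes in this list 14 were higher and 0 passed the limma test. An unadjusted p under 0.05 was found in 2, both higher, against 8.92% of all genes. The median of the list was 0.10, or 0.02 without PEG-glutaminase 2. Incenp of the chromosomal passenger complex stood at 0.35 ± 0.11 (limma adjusted p = 0.155), the microtubule polymerase Ckap5 at 0.28 ± 0.10 (0.206) and the kinetochore motor Cenpe, a kinesin whose symbol the rule does not match, at 0.40 ± 0.18 (0.297), or 0.23 without PEG-glutaminase 2. Racgap1, the partner of Kif23 in centralspindlin, stood at 0.03 ± 0.09. PEG-glutaminase 2 was the highest library in 14 of the 16.

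A list of regulators of cell cycle transcription, which holds E2F, Myb, Foxm1, MuvB and pocket proteins and also cyclin F (Ccnf), a ubiquitin ligase subunit, had a larger median than the motors. Of 15 tested, 13 were higher and 0 passed the limma test. An unadjusted p under 0.05 was seen in 9 as higher and in 1, Rbl2, as lower, against 8.92% and 9.51% of all genes. DESeq2 called 3 of the list, where it called 1.73% of all genes higher and 2.17% lower. The median of the list was 0.29, and 0.21 without PEG-glutaminase 2. In 10 of the 15 the groups did not overlap, all higher, against 13.1% of all genes. Mybl2, the B-Myb partner of MuvB, stood at 0.55 ± 0.12 (limma adjusted p = 0.114), Tfdp1, the dimer partner of E2F proteins, at 0.37 ± 0.09 (0.122) and the repressor E2f8 at 0.64 ± 0.16 (0.136). Foxm1, the factor best known for driving mitotic genes, stood at 0.13 ± 0.09 (0.463).

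Of the 8 proliferation markers all were higher, with a median of 0.24, and 0 passed the limma test. Without PEG-glutaminase 2, 7 were higher and the median was 0.17. Top2a, the topoisomerase of dividing cells, stood at a mean of 7179 ± 792 in vehicle tumours and 9117 ± 901 in treated ones (normalized counts, SD, n = 3), a difference of 0.35 ± 0.11 (limma adjusted p = 0.164), and Mki67 had 4890 ± 1227 and 6345 ± 480, a difference of 0.40 ± 0.17 (0.27), or 0.24 after the length correction. Their summed level ran from 32932 to 36348 in vehicle tumours and from 39371 to 46184 in treated ones, highest in PEG-glutaminase 2. In whole tumours, more dividing cells and more kinesin RNA per dividing cell cannot be told apart.

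Partners of the transport motors had mostly negative differences, with 4 of 14 tested higher and a median of -0.08. None passed, and 4 had an unadjusted p under 0.05, all lower, against 9.51% of all genes. Klc4, a kinesin light chain, stood at -0.46 ± 0.14 (limma adjusted p = 0.154) and Plekhm2, which links lysosomes to Kif5b, at -0.22 ± 0.09 (0.239), next to Kifap3 given above. Klc1, the main light chain, stood at -0.02 ± 0.08. The dynein and dynactin genes, whose motor walks the opposite way, had a median of -0.02 over 23 tested, 10 higher, and 0 passed. Against 9.51% over all genes, 5 of these 23 were lower at an unadjusted p under 0.05, and 0 were higher at that p. Their smallest p-values were those of Dynlt3 at -0.40 ± 0.14 and the dynactin subunits Dctn3 at -0.25 ± 0.08 and Actr10 at -0.20 ± 0.09 (limma adjusted p of 0.185, 0.185 and 0.252), and Dctn3, a short transcript, stood at -0.12 after the length correction. Tubulins, the building blocks of the track, had a median of -0.01 over 13 tested with 6 higher. Tubb4a stood at -0.68 ± 0.22, Tuba1b at 0.25 ± 0.10 and Tube1 at 0.22 ± 0.15, none past the limma test.

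Markers of other cells differed between the tumours, and their part in these values was not tested. T and NK cell markers summed to 4164 to 4989 normalized counts in vehicle tumours and 574 to 3365 in treated ones, lowest in PEG-glutaminase 2, the tumour with the highest mitotic motors. Skeletal muscle markers ran from 271 to 1128 and from 135 to 1782, and nerve and Schwann cell markers from 965 to 1081 and from 1216 to 1880, both highest in PEG-glutaminase 2. Yet all 9 tested muscle markers had a log2 difference under 0, with a median of -0.99. Of the 5 tested nerve and Schwann cell markers 4 were higher. Endothelial markers ran from 3492 to 3809 and from 3679 to 4954. All 7 were higher and highest in PEG-glutaminase 2, as the mitotic motors were, and their median log2 difference of 0.23 was -0.00234 without that tumour. Fibroblast markers ran from 52225 to 70962 and from 58824 to 74306, a sum also highest in PEG-glutaminase 2. Of these 8 markers, however, 4 were higher and 4 lower. PEG-glutaminase 2 was the highest library in 4 of them and the lowest for Dcn, at 2658. Macrophage markers ran from 40604 to 55769 and from 47331 to 53435. Of these 9 markers 5 were higher and 4 lower, with a median log2 difference of 0.10, and PEG-glutaminase 2 was highest in 2. Mrc1, among these 2, had 2078 to 2655 in vehicle and 4725 to 8955 in treated tumours (limma adjusted p = 0.124). Keratinocyte markers ran from 102 to 8509 in vehicle tumours, highest in vehicle 1, and from 65.3 to 89.5 in treated ones. Of the nerve list Snap25 was at 0 in all libraries and Sox10 reached at most 2.07, beside at most 23.8 normalized counts of Kif5a and 14.5 of Kif1a. The ciliated cell list summed to 918 to 983 and 851 to 1138, nearly all of it Cfap43 at 811 to 1115, with Ccdc39 at 15.7 to 37.6, while Dnah5, Dnah9, Rsph1 and Tekt1 were at 0 in all libraries. As to the labelled tissue, the colon keratin Krt20 stood at 4317 to 5226 in vehicle and 2349 to 3652 in treated tumours, while Epcam and Vil1 were low, at most 58.0 and 4.12. Of the 8 tested colon epithelial markers 6 were lower and 2, Krt8 and Cdx2, were higher. Krt8 had a mean of 8.45 in vehicle and 17.4 in treated tumours, and Cdx2 9.79 and 22.3.

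Reads of near-identical copies may be shared between rows, and the sources used here do not say how they were counted. Kif22-ps and Kif4-ps, pseudogenes of Kif22 and Kif4, were at 0 in every library. Kifc5c-ps, a copy related to Kifc1, had 54.5 to 90.8 normalized counts and a log2 difference of -0.43 (limma adjusted p = 0.291), opposite in sign to that of Kifc1. Whether reads were shared between Kifc5c-ps and Kifc1 was not tested, and the value of Kifc1 is uncertain to that extent. The antisense transcript Kif16bos reached at most 2.94.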

How the data were processed

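The members and gene lists were chosen with earlier results of these data known. Per the labels' protocols, poly-A RNA of each tumour was selected with beads and turned into cDNA with random primers. The tools that the submitters' processing notes list are FastQC, STAR, featureCounts, DESeq2 and DESeq, with no version. The sources used here give neither genome build nor strand setting. The deposited table holds an expression signal, counts scaled by a size factor, for BALB/cJ gene models, per the file headers, beside the authors' log2 fold changes with standard errors, a Wald score and p-values. The 93 repeated rows were dropped, and 2902 models carry no symbol.

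All deposited values were whole multiples of 1 step per library (tolerance 0.01), so whole reads were recovered for edgeR 4.0.16 and DESeq2 1.42.0. For PEG-glutaminase 2 the step lies near 1. The main test was limma 3.58.1 in R 4.3.3 (mean trend, robust, two-sided, Benjamini-Hochberg) on log2(value + 1) over genes with a mean of at least 10. It was also run on simulated counts, with larger changes than any tested kinesin had. That run cannot show its power for smaller changes. Transcript lengths came from GENCODE M21 through Ensembl identifiers, for 99.4% of genes tested; the length correction took off a lowess trend (span 0.3) against log2 length in each library. Values per library are given for the 7 mitotic motors, the 6 other members of smallest p and the 4 transport motors of highest mean, with 3 genes of smallest p for each pathway list, Top2a and Mki67. Racgap1, Foxm1, Rbl2, Klc1, Mrc1 and the kinesin-2 subunits were added after their values were seen. Other pseudocounts, filters, scalings, tools, the replicate number as a block and each library left out were tried.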

Additional observations from a re-analysis of the deposited data

How the results depend on the processing

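No alternative run here turned the count of kinesins past an adjusted p of 0.05 from 0 except the authors' deposited adjusted p, which gives 1. At 0.05 the count was 0 without each library in turn and with edgeR, DESeq2 and limma under other scalings. At an adjusted p of 0.1 it was 0 in the main limma fit. By DESeq2 adjusted p, Kif5b at 0.0502 and Kifc3 at 0.0811 lay under 0.1. So did Kifc3 by limma adjusted p without PEG-glutaminase 3, at 0.0823. The median log2 difference of the mitotic motors ran from 0.0941 to 0.272 over the fits that leave out 1 library, and their mean difference from the transport motors from 0.103 to 0.211, lowest without PEG-glutaminase 2 in both. The median of the transport motors ran from -0.0743 without vehicle 2 to 0.0792 without vehicle 1, and was 0.0576 over those with a mean of at least 50. Of 256 values for 16 named kinesins under the alternatives, 252 kept their direction and none crossed the threshold. Kif1c turned to -0.0371 with the length correction, and Kif2c ran from -0.0982 to 0.0816 over the fits that leave out 1 library. With the number as a replicate block 0 kinesins passed and 3 had an unadjusted p under 0.05. The same-numbered libraries did not deviate together (correlations of -0.129, -0.214 and -0.22). These values gave no sign of pairing by number. They cannot settle it, because differences in cell make-up between the tumours also enter them. Members with few reads, such as Kif1a with 70 over the 6 libraries, have wide intervals.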
